A study of Mus musculus with 8 samples.

Results

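The genes described here organise lymphoid follicles, the clusters of B cells that lie in the colon wall. They were chosen by name as 8 genes: the lymphotoxins Lta and Ltb with their receptor Ltbr, the follicle chemokine Cxcl13 with its receptor Cxcr5, the addressin Madcam1, and the transcriptional regulators Spib and Pou2af1. A gene was kept where a probe set, the group of probes that the array reads as 1 value, was annotated to that gene alone. This held for 5 of the 8 genes, Cxcl13, Ltb, Ltbr, Spib and Pou2af1, with 1 probe set each, out of 16645 genes on 18154 single-gene probe sets. Cxcr5, Lta and Madcam1 were not analysed here.

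The tissue was the far distal end of the colon, taken from male mice of the inbred BALB/c strain aged 5 weeks, with no engineered allele named for either group. AA mice had appendicitis induced, followed 1 week afterwards by appendicectomy. SS mice had sham surgery, repeated after 1 week. The design text places the operation at the lymphoid follicles of the caecum, at the opposite end of the colon from the piece that was measured. Each group had 4 arrays of individual colon samples, split evenly over 2 batches named in the labels.

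Lymphoid cells carry lymphotoxin, a heteromer of the Lta and Ltb products, on their surface. It engages the lymphotoxin beta receptor on stromal cells, which signals through the kinase NIK and the RelB and p52 forms of NF-kB. Stromal cells then make CXCL13, which draws B cells bearing CXCR5, and MAdCAM-1, which captures lymphocytes bearing the integrin of the Itga4 and Itgb7 products. In the gut this circuit builds Peyer's patches before birth and keeps isolated follicles afterwards. Spi-B, an Ets factor, acts in B cells and also in the M cells of the epithelium over follicles. OCA-B, the product of Pou2af1, is a coactivator of octamer-binding factors that B cells need to form germinal centres.

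Values are the authors' log2 expression values, so a difference of 1 is a doubling, and differences are given as AA minus SS. The deposited values had equal means in both batches for every tested probe set, to within 6e-05. A high value in 1 array of a batch therefore comes with lower values in the other arrays of that batch, and levels are best read within a batch. Across all tested probe sets, AA replicate 3 and SS replicate 1 stood apart on the first component (31.9% of the variance) and AA replicate 2 stood at one end of the second (27.4%). Car1, carbonic anhydrase of colon epithelium, was at 13.55 to 13.89 in all 8 arrays, a level near the top of the scale. In whole tissue, fewer cells of a type and less RNA per cell cannot be told apart.

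The RefSeq start regions of 4 members are shown because lymphotoxin acts through NF-kB, OCA-B through the octamer and Spi-B through the Ets box, so that the letters at the starts of these genes can be read beside their values. Each runs from 250 bases before to 50 bases after a transcript start on GRCm38.p6, 5′ to 3′ along the gene. They lie at chr7:44532022-44532321 on the minus strand for Spib, chr5:95956689-95956988 on the plus strand for Cxcl13, chr17:35194257-35194556 on the plus strand for Ltb and chr9:51213440-51213739 on the plus strand for Pou2af1. Capitals mark matches, on either strand, to the octamer ATGCAAAT, the NF-kB consensus or the Ets box GAGGAA.
Spib: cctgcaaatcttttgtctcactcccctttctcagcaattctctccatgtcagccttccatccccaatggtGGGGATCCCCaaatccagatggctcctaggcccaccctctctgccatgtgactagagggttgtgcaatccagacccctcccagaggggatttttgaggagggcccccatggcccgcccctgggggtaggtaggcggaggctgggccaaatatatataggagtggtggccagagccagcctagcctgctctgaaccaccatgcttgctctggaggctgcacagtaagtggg
Cxcl13: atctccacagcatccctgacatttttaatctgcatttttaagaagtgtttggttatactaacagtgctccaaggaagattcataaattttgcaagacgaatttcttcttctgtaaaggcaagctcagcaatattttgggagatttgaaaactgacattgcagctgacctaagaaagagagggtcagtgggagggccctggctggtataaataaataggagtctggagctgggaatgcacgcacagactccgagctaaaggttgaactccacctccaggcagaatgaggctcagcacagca
Ltb: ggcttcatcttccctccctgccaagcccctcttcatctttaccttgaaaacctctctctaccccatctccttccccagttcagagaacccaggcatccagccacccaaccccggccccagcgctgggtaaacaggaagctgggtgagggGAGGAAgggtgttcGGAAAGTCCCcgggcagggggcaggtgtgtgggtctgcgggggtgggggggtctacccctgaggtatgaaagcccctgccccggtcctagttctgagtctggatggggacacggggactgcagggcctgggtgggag
Pou2af1: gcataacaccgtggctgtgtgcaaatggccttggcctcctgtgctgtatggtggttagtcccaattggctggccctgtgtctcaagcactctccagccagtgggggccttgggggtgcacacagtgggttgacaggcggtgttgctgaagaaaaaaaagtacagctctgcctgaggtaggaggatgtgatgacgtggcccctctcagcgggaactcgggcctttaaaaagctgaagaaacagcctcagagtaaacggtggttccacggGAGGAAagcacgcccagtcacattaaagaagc

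The capitals in Spib are an NF-kB consensus match at position -180, counted with the first transcribed base as 1, and it reads the same on both strands. Ltb held an NF-kB consensus match at position -87 on the reverse strand and an Ets box at position -101. Pou2af1 held an Ets box at position 19. The window of Cxcl13 held 0 matches to the 3 motifs, and that of Ltbr, not printed, held an Ets box on the reverse strand at position -72. Of all 32851 windows in the table, 1.74% held the octamer, 4.51% the NF-kB consensus and 28.3% the Ets box. The octamer was in none of the windows of the 5 measured members. No overlap between matches occurred in these windows, and the matches are a description of the letters alone.

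**Figure D1:**
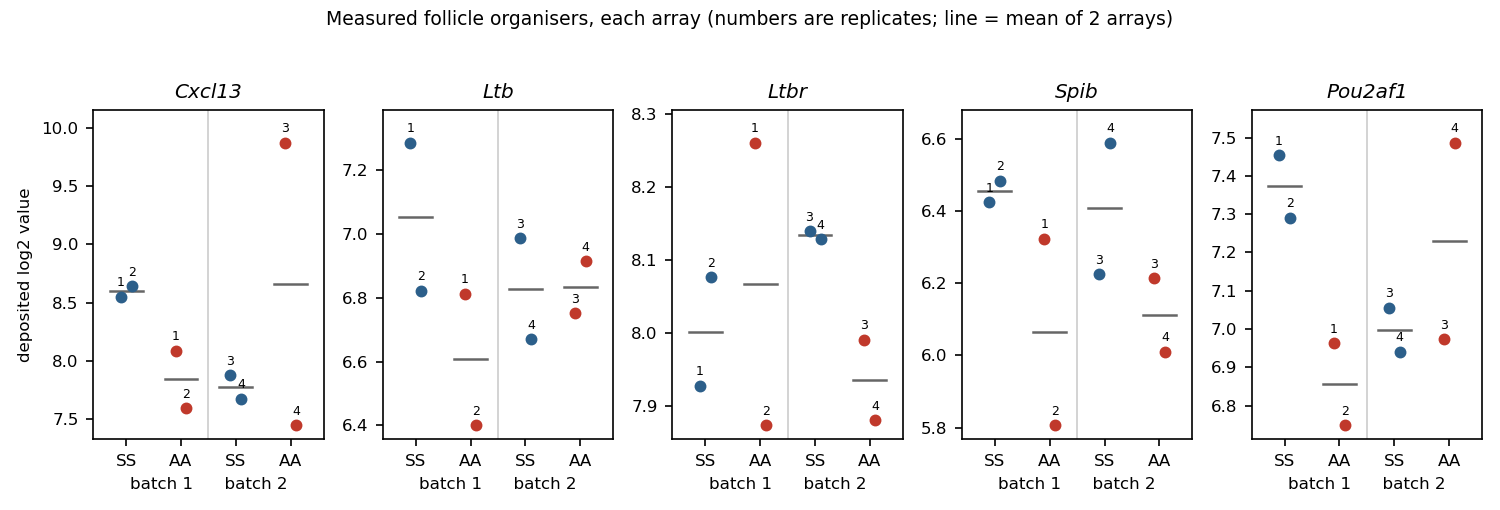
Deposited log2 value (y axis, own scale per gene) of the 5 measured genes in each array, grouped by batch and group; blue is SS, red is AA, numbers are replicates and lines are means of 2 arrays. Spib is the gene whose AA arrays lie below the SS arrays in both batches, and Cxcl13 holds the highest single value, 9.87 in AA replicate 3.

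Of the 5 measured genes 4 had a lower mean in AA, against 49% of all probe sets tested. None was called. In limma, with Benjamini-Hochberg adjustment over all 18154 probe sets, 0% of probe sets passed an adjusted p of 0.05, and the adjusted p-values of the members ran from 0.570 for Spib to 0.990 for Cxcl13. At an unadjusted p under 0.05, Spib was the 1 member lower in AA, and 0 members were higher. The same threshold took 2.7% of all tested probe sets on the lower side and 5.38% on the higher side. In 0 of the 5 genes did all AA arrays lie below, or all above, all SS arrays, a pattern seen in 2.18% and 4.21% of probe sets.

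Within batches the picture differed. In batch 1, both AA arrays lay below both SS arrays in Cxcl13, Ltb, Spib and Pou2af1, 4 of 5 genes, against 17.9% of all probe sets. In batch 2 this held for Spib and Ltbr, against 24.8%. Spib alone did so in both batches, a pattern of 2.78% of all probe sets. The members' median difference was -0.14 over all arrays, -0.45 in batch 1 and 0.0045 in batch 2. Over all genes, read with 1 probe set each, the medians were 0.0066, 0.03 and 0.0045. The sign of the difference turned between batches in Cxcl13, Ltb, Ltbr and Pou2af1, as it did in 54.4% of all probe sets.

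In batch 1 the B cell list mean was also low in AA, at -0.15 and -0.50 against 0.42 and 0.24 in SS, each value being the mean over 18 genes after subtracting each gene's own mean. In batch 2 it was -0.05 and -0.01 in AA against 0.04 and 0.03 in SS. The adipocyte list mean of SS replicate 1 was 1.33, against -0.64 to 0.34 in the other 7 arrays. The part of these cell types in the members' values was not tested. Without AA replicate 2, the lowest array for Ltb, Ltbr, Spib and Pou2af1, 4 of 5 members were still lower, with a median of -0.02. Without SS replicate 1 the count was 4 of 5 with a median of -0.08, and without AA replicate 3 it was 5 of 5 with a median of -0.23. Of all tested probe sets, 49.5% were lower without AA replicate 2, 51.4% without SS replicate 1 and 46.7% without AA replicate 3. Counts of genes without these arrays, here and in the lists, were chosen after seeing the data.

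**Figure D2:**
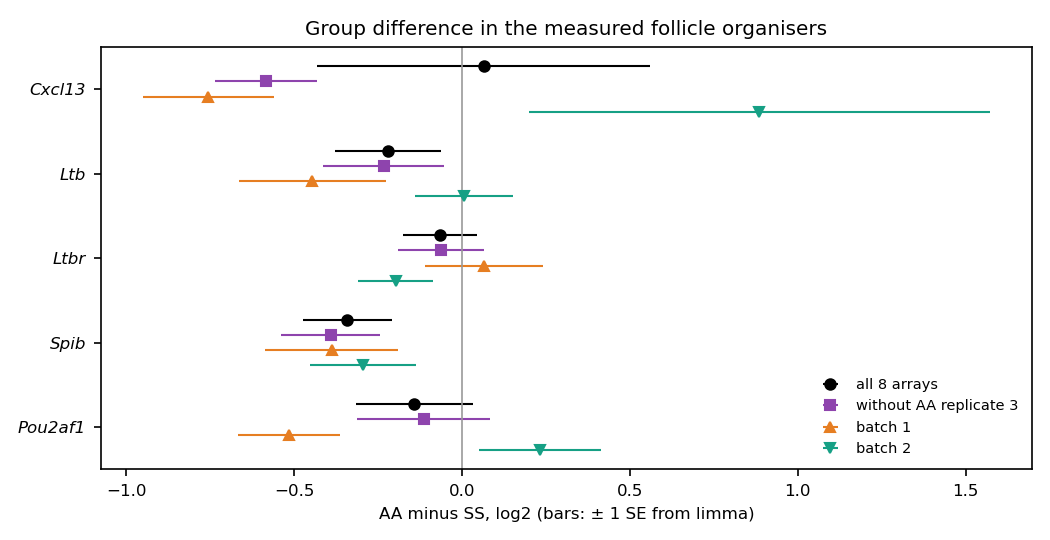
AA minus SS on the log2 scale (x axis) for the 5 measured genes with all 8 arrays, without AA replicate 3 and in each batch alone; points are differences and bars are 1 standard error from limma. Spib lies left of 0 in all 4 settings, and Cxcl13 moves from 0.06 to -0.58 when AA replicate 3 is left out.

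Spib, the Ets factor of B cells and M cells, was at 6.32, 5.81, 6.21 and 6.01 in AA replicates 1 to 4. It was at 6.42, 6.48, 6.22 and 6.59 in SS replicates 1 to 4. The AA arrays were the lower ones in each batch, although AA replicate 1 of batch 1 lay above SS replicate 3 of batch 2, and AA replicate 3 lay just below SS replicate 3. AA had a mean of 6.09 ± 0.23 (SD, n = 4) against 6.43 ± 0.15 (SD, n = 4) for SS, so that AA stood at 0.789 of the SS level. The difference of -0.34 ± 0.13 (SE) had a 95% interval of -0.64 to -0.04, an unadjusted p of 0.0299 and an adjusted p of 0.570 in limma. It was -0.39 in batch 1 and -0.29 in batch 2. An exact two-sided permutation of the labels within batches gave p = 0.0556 for Spib, the smallest that its 36 relabelings can give, so this design cannot pass 0.05 in that test. The difference was larger than the SD of either group, although the groups overlapped, and it did not pass the threshold over all probe sets. Leaving out AA replicate 2, the lowest array, brought it to -0.23.

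Genes of M cells and follicle epithelium, in which Spib also acts, showed no shared direction in 12 measured genes. In AA 5 were lower and 7 higher, the median being 0.21, and 1 lower and 2 higher genes had an unadjusted p under 0.05. Of all tested probe sets 49% were lower, and that threshold took 2.7% on the lower side and 5.38% on the higher side. Without AA replicate 3 the count in this list became 7 lower and 5 higher, with a median of -0.06. Ccl20, the chemokine that follicle epithelium makes to attract cells bearing CCR6, was at 8.07, 7.38, 7.68 and 7.59 in AA and at 8.06, 8.67, 8.71 and 8.21 in SS. The AA arrays were thus the lower ones in batch 2, while in batch 1 AA replicate 1 lay just above SS replicate 1. The difference in Ccl20 was -0.73 ± 0.19 (SE), with an unadjusted p of 0.00380 and an adjusted p of 0.336 in limma, and it was -0.64 in batch 1 and -0.82 in batch 2.

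Gp2, the bacterial uptake receptor of M cells, was the member of that list with the next lowest p on the lower side. It was at 8.35, 6.83, 7.50 and 7.33 in AA and at 7.61, 8.49, 8.12 and 8.33 in SS, so that AA replicate 1 lay among the SS arrays and the other 3 below them. Its difference was -0.63 ± 0.31 (SE), with an unadjusted p of 0.0693 in limma. Anxa5, a phospholipid-binding annexin, and Pglyrp1, a peptidoglycan recognition protein, differed by 0.41 ± 0.14 (SE) and 0.27 ± 0.11 (SE). Epithelial genes as a whole differed little, with a median of 0.06 over 14 genes, or 0.0089 without SS replicate 1. Their list means were -0.05 to 0.10 in AA and -0.18 to 0.07 in SS. In AA 10 of them were higher and 4 lower. An unadjusted p under 0.05 was reached by 1 higher gene, against 5.38% of all probe sets on that side.

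Cxcl13, the chemokine of the B cell follicle, had the widest spread of the 5 genes. It was at 8.09, 7.59, 9.87 and 7.45 in AA replicates 1 to 4 and at 8.55, 8.64, 7.88 and 7.68 in SS replicates 1 to 4. AA replicate 3 was the highest of all arrays, the other 3 AA arrays lay below both SS arrays of their own batch, and the groups overlapped. The standard deviation over the 8 arrays was 0.796, above that of 99.4% of tested probe sets. AA had a mean of 8.25 ± 1.12 (SD, n = 4) against 8.19 ± 0.48 (SD, n = 4) for SS. They differed by 0.06 ± 0.50 (SE), with a 95% interval of -1.05 to 1.18. An exact two-sided permutation within batches gave p = 1.0 for Cxcl13.

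The sign of the Cxcl13 difference was not settled, and it turned with the arrays that were kept. The difference was -0.76 in batch 1 and 0.89 in batch 2, where AA replicate 3 and AA replicate 4 were the highest and lowest arrays. Without AA replicate 3 it was -0.58 ± 0.15 (SE), with an unadjusted p of 0.0043 and an adjusted p of 0.394 in limma. That array holds the highest value, so leaving it out lowers the AA mean and the spread by construction. The p-value of that fit is tied to this choice and cannot show that Cxcl13 was lower in AA. Leaving out SS replicate 3 or SS replicate 4 also turned the sign, to -0.06 and -0.14, while leaving out any other array gave 0.13 to 0.39. AA replicate 3 also had the highest macrophage list mean, at 0.96 over 12 genes, where the other AA arrays ran from -0.24 to 0.36 and the SS arrays from -0.55 to 0.27. All 12 macrophage genes had a higher AA mean, with a median of 0.48, and without AA replicate 3 the median was 0.23 with 11 higher. It was 0.76 without AA replicate 2 and 0.72 without SS replicate 1. Its B cell list mean of -0.05 lay between those of the other AA arrays. The part of macrophages in the Cxcl13 value was not tested.

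Cxcl13 was the 1 member whose values spanned at least 1 log2 unit, and for it the nearest profiles were sought among 16644 other genes. Nearness was the mean absolute difference between the profiles over 8 arrays, after subtracting each gene's own mean. The nearest were Ms4a4c, of the membrane-spanning family that also holds Ms4a1, at 0.17, Il1f9, an interleukin of the IL-1 family, at 0.22, Il1b, the inflammatory cytokine, at 0.25, Ccr2, the receptor that brings monocytes to tissue, at 0.25, and Lilr4b, a leukocyte immunoglobulin-like receptor, at 0.26. The median over all genes was 0.62. In each of the 5 genes AA replicate 3 was the highest array, at 7.43 in Ms4a4c and 8.51 in Ccr2. These genes were picked for their likeness, the arrays are shared, and a single array carries most of it.

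**Figure D3:**
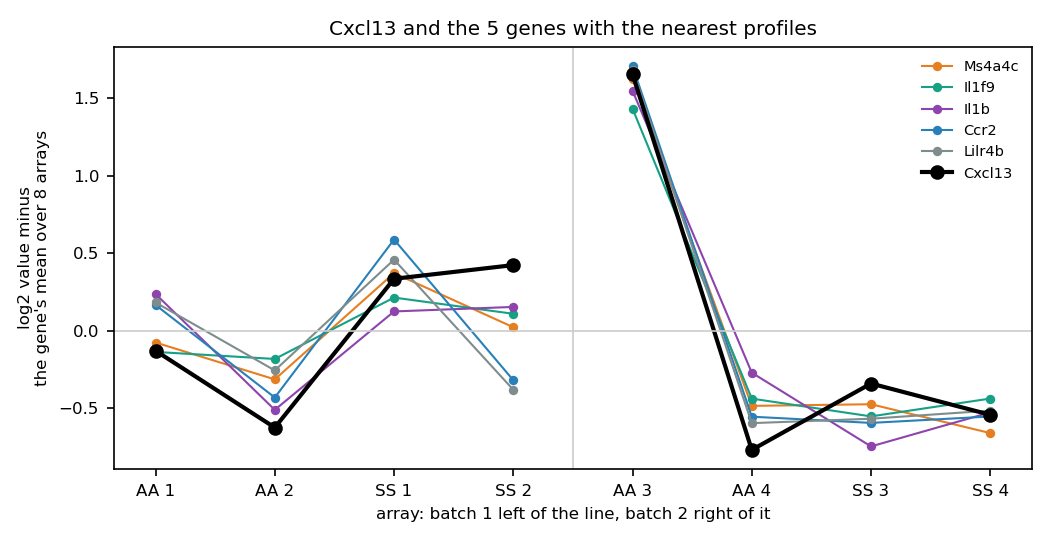
Log2 value minus the gene's own mean over 8 arrays (y axis) for Cxcl13 (black) and the 5 genes with the nearest profiles, by array and batch (x axis). All 6 genes peak in AA replicate 3, and within batch 1 Cxcl13 is lower in both AA arrays than in both SS arrays.

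Ltb, which anchors lymphotoxin in the membrane of lymphocytes, was at 6.81, 6.402, 6.75 and 6.91 in AA and at 7.28, 6.82, 6.99 and 6.67 in SS. The groups overlapped, with SS replicate 1 highest and AA replicate 2 lowest. The means were 6.72 ± 0.22 (SD, n = 4) and 6.94 ± 0.26 (SD, n = 4). The difference of -0.22 ± 0.16 (SE) was within the spread of the arrays, with a 95% interval of -0.58 to 0.13 and an adjusted p of 0.777 in limma. It was -0.45 in batch 1 and 0.0045 in batch 2. Without SS replicate 1 it was -0.08.

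Ltbr, the lymphotoxin beta receptor of stromal, epithelial and myeloid cells, was the least variable member. It was at 8.26, 7.87, 7.99 and 7.88 in AA and at 7.93, 8.08, 8.14 and 8.13 in SS. AA replicate 1 was the highest array, and the other 3 AA arrays lay below 3 of the 4 SS arrays. The means were 8.002 ± 0.18 (SD, n = 4) and 8.07 ± 0.10 (SD, n = 4), and the difference was -0.07 ± 0.11 (SE), with a 95% interval of -0.32 to 0.18 and an adjusted p of 0.918 in limma. It was 0.07 in batch 1 and -0.20 in batch 2, and without AA replicate 1 it was -0.17.

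RNA levels of genes for the steps after the receptor differed as little, and the activity of the path was not measured. Map3k14, which encodes NIK, differed by 0.03 ± 0.08 (SE), Nfkb2, the precursor of p52, by 0.02 ± 0.08 (SE), and Relb by -0.01 ± 0.13 (SE). Tnfrsf14, the receptor for LIGHT, differed by 0.02 ± 0.12 (SE). Of 20 measured genes of the lymphotoxin, TNF and NF-kB path, 11 were higher and 9 lower in AA with a median of 0.01. The split was 14 and 6 without AA replicate 2, with a median of 0.07, and 13 and 7 without SS replicate 1, with a median of 0.04. An unadjusted p under 0.05 was reached by 4 genes, all with a higher AA mean, against 5.38% of all probe sets on the higher side. They were receptors and ligands of neighbouring branches. Tnfrsf1a, the main TNF receptor, was at 8.92 to 9.08 in AA and 8.54 to 8.82 in SS, and Tnfsf13b, the B cell survival factor BAFF, was at 7.37 to 7.75 and 6.99 to 7.38. The groups did not overlap in Tnfrsf1a, whereas in Tnfsf13b AA replicate 2 and SS replicate 3 overlapped. Their differences were 0.32 ± 0.09 (SE) and 0.37 ± 0.12 (SE). Tnfrsf11b, the RANKL decoy osteoprotegerin, differed by 0.52 ± 0.17 (SE), and Tnfrsf1b, the other TNF receptor, by 0.40 ± 0.16 (SE). The adjusted p-values of these 4 genes in limma were 0.453 to 0.587. In the authors' deposited table of gene sets raised in AA, 5 of 267 sets stood under NF-kB, with normalized enrichment scores of 1.78 to 2.11. Their names refer to NF-kB or TNF, and none names lymphotoxin, NIK or RelB. The table lists raised sets only, so positive scores follow from its making.

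Pou2af1, the octamer coactivator of B cells and plasma cells, was at 6.96, 6.75, 6.97 and 7.49 in AA and at 7.45, 7.29, 7.06 and 6.94 in SS. AA replicate 4 was the highest array and AA replicate 2 the lowest, and the groups overlapped. The means were 7.04 ± 0.31 (SD, n = 4) and 7.19 ± 0.23 (SD, n = 4), and the difference was -0.14 ± 0.17 (SE), with a 95% interval of -0.53 to 0.25 and an adjusted p of 0.875 in limma. The difference was -0.52 in batch 1 and 0.23 in batch 2. The change between batches, 0.75 ± 0.25 (SE), had an unadjusted p of 0.0180 and an adjusted p of 0.524 in limma. An unadjusted p under 0.05 in that test was reached by 9.46% of probe sets and an adjusted one by 0%. In the other 4 members it was 0.0977 to 0.741.

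Plasma cell genes, which Pou2af1 accompanies in antibody-secreting cells, were higher in AA in 8 of 11 measured genes, Pou2af1 being among the other 3, the median being 0.07 and 0.13 without AA replicate 3, and 0 had an unadjusted p under 0.05 in either direction. Jchain, the joining chain of secreted IgA, differed by 0.25 ± 0.15 (SE), Mzb1, a chaperone of antibody assembly, by 0.32 ± 0.20 (SE), and Xbp1, the factor of the secretory programme, by 0.19 ± 0.09 (SE). Among AA arrays Mzb1 was highest in AA replicate 4, at 7.70, the array that was also highest for Pou2af1.

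Other transcription factors of the B lineage split evenly, with 8 of 16 higher and 8 lower and a median of 0.02, which was -0.01 without SS replicate 1. Pax5, which fixes B cell identity, was at 5.98, 5.97, 5.98 and 6.41 in AA and at 6.53, 6.49, 6.42 and 6.17 in SS. It was lower in both AA arrays of batch 1, and in batch 2 AA replicate 4 lay above SS replicate 4 and just below SS replicate 3. The difference was -0.32 ± 0.13 (SE), with an unadjusted p of 0.0403 and an adjusted p of 0.602 in limma. Ikzf3, a lymphocyte zinc finger factor, differed by -0.27 ± 0.15 (SE). Spi1, the Ets relative of Spib that also directs macrophages, differed by 0.35 ± 0.17 (SE) and was highest in AA replicate 3, at 6.60. Pou2f2, an octamer-binding partner of OCA-B, differed by 0.11 ± 0.12 (SE).

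**Figure D4:**
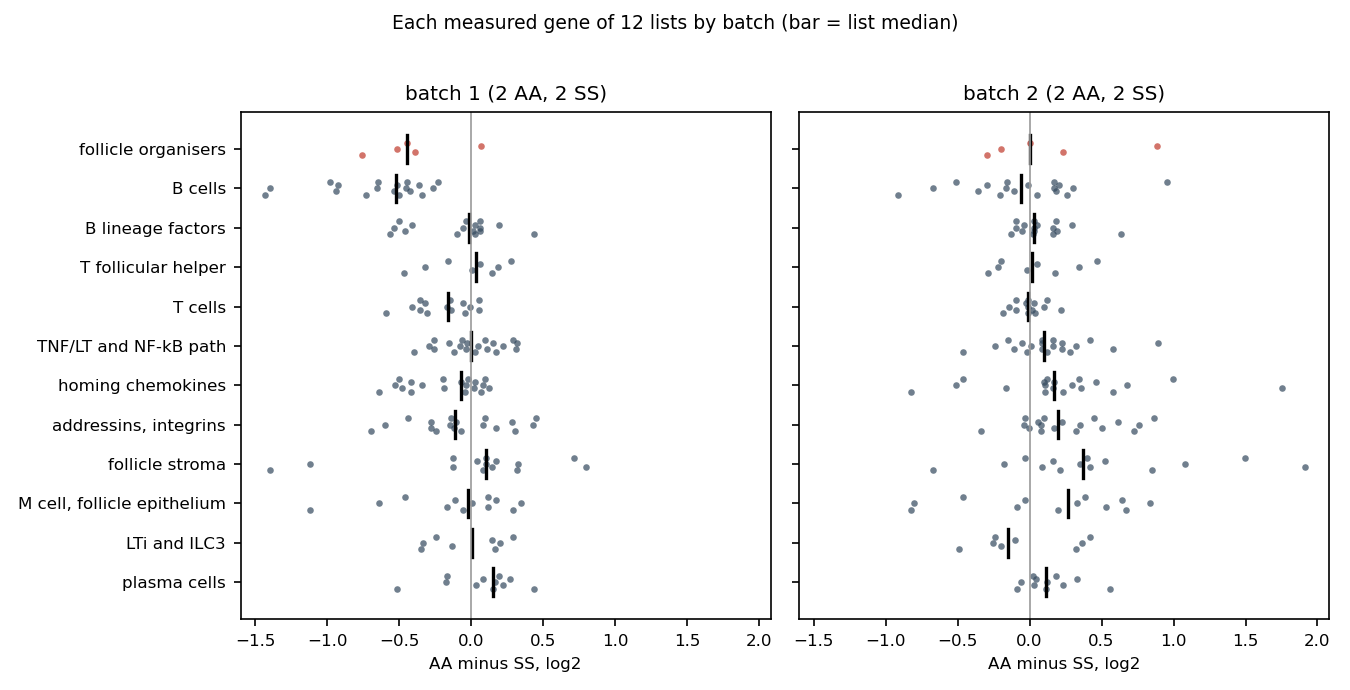
AA minus SS on the log2 scale (x axis) of every measured gene in 12 lists, in batch 1 (left) and batch 2 (right); each point is a gene, black bars are list medians and red points are the measured follicle organisers. The B cell median moves from -0.52 in batch 1 to -0.06 in batch 2 and the organisers' median from -0.45 to 0.0045.

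B cells are among the sources of lymphotoxin and are a target of CXCL13. Their genes were lower in AA in 17 of 18 measured genes, the median being -0.30, or -0.52 in batch 1 and -0.06 in batch 2. An unadjusted p under 0.05 was reached by 10. Of all tested probe sets 49% were lower, and 2.7% reached that threshold on the lower side. The B cell list was written with earlier results of these data known, so its counts are a description and not a test. The B cell count was 15 of 18 without AA replicate 2 and also without SS replicate 1, with 7 and 8 at that threshold. The share of all probe sets at that threshold on the lower side was then 2.72% and 6.17%. The members' list, with 4 of 5 lower and 1 at that threshold, had a smaller median of -0.14, and the difference between the lists was not tested. In Ms4a1, which encodes CD20, the AA arrays ran from 4.82 to 5.997 and the SS arrays from 6.45 to 6.85. In Cr2, which encodes a complement receptor found on B cells and on follicular dendritic cells, they ran from 4.91 to 5.69 and from 6.17 to 6.87. The groups did not overlap in either gene. The differences were -1.18 ± 0.23 (SE) and -1.04 ± 0.20 (SE), against -0.43 ± 0.11 (SE) in Cd79a, a chain of the B cell receptor, and -0.73 ± 0.17 (SE) in Fcer2a, the low-affinity IgE receptor. Adjusted by limma, their p-values were 0.238 to 0.321.

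Genes of the stroma that holds follicles were higher in AA in 10 of 14 measured genes, the median being 0.30 and 0.19 without AA replicate 3. An unadjusted p under 0.05 was reached by 3 higher genes and 1 lower gene, and without SS replicate 1 by 6 and 1. The lower one was Cr2, which B cells also express. Of all probe sets, 5.38% were higher and 2.7% lower at that threshold. Without SS replicate 1 it took 1013 higher and 1121 lower probe sets of 18154. Grem1, a BMP antagonist of fibroblasts, was at 8.70 to 9.05 in AA and 7.84 to 8.42 in SS, with no overlap between the groups. It differed by 0.66 ± 0.15 (SE), with an adjusted p of 0.284 in limma. Pdpn, which encodes podoplanin of reticular and lymphatic cells, differed by 0.70 ± 0.27 (SE) and was highest in AA replicate 3, at 9.26. Fibroblast marker genes were higher in 12 of 12 cases, the median being 0.50, with list means of 0.19 to 0.39 in AA and -0.49 to 0.07 in SS. The part of fibroblasts in the stromal values was not tested.

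Chemokines and receptors of lymphoid homing had a median of 0.02 over 19 genes, with 10 higher and 9 lower. Ccl20, lower in AA, was the 1 gene at an unadjusted p under 0.05, against 2.7% of all probe sets on that side. Without SS replicate 1 the count was 15 higher and 4 lower, with a median of 0.08, and without AA replicate 3 it was 9 higher and 10 lower, with a median of -0.07 and 2 lower genes at that threshold. Ccl19 and Ccr7, the T cell zone chemokine and its receptor, differed by 0.02 ± 0.09 (SE) and -0.16 ± 0.16 (SE). Cxcl12, the stromal chemokine of plasma cells and stem cells, was at 7.24 to 7.43 in AA and 6.71 to 7.23 in SS, and differed by 0.28 ± 0.13 (SE). Ccl28, an epithelial chemokine for IgA cells, differed by -0.48 ± 0.22 (SE), and Il7r, the interleukin-7 receptor of lymphocytes and lymphoid tissue inducer cells, by -0.25 ± 0.12 (SE).

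Of 18 measured addressin and integrin genes 13 were higher in AA, the median being 0.18. An unadjusted p under 0.05 was reached by 1 higher gene, against 5.38% of all probe sets on that side. Without AA replicate 3 the split was 9 and 9 with a median of 0.01, and without SS replicate 1 it was 16 higher and 2 lower. The ligand pair of MAdCAM-1, Itga4 and Itgb7, differed by 0.20 ± 0.16 (SE) and 0.02 ± 0.16 (SE). Nkx2-3, the factor that MAdCAM-1 expression needs in mice, differed by 0.16 ± 0.10 (SE). Cd34, a sialomucin of endothelium and stroma, differed by 0.53 ± 0.20 (SE). Glycam1, the secreted L-selectin ligand, differed by -0.32 ± 0.16 (SE), Emcn, an endothelial mucin, by 0.24 ± 0.12 (SE), and Chst2, a sulfotransferase of L-selectin ligands, by 0.17 ± 0.09 (SE).

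T follicular helper genes were 4 higher and 4 lower of 8 measured, with a median of 0.02, which was between 0.0027 and 0.0065 without AA replicate 2, AA replicate 3 or SS replicate 1. Btla, an inhibitory receptor also found on B cells, was at 5.32 to 5.51 in AA and 5.64 to 5.85 in SS, and differed by -0.34 ± 0.09 (SE). Slamf6, a lymphocyte adhesion receptor, differed by -0.30 ± 0.11 (SE). Maf, a factor of helper T cells that macrophages share, and Cd200, found on stroma as well, differed by 0.31 ± 0.09 (SE) and 0.33 ± 0.13 (SE). The 4 genes were all at an unadjusted p under 0.05, with limma giving adjusted values of 0.333 to 0.574. In each of them the groups did not overlap. Over all tested probe sets, 2.7% reached that threshold on the lower side and 5.38% on the higher side. Groups without overlap made up 2.18% of probe sets with AA lower and 4.21% with AA higher. Because these 4 genes were named for the smallest p in their list, their lack of overlap is tied to that choice.

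Genes of lymphoid tissue inducer and group 3 innate lymphoid cells, the first cells to present lymphotoxin in the embryo, were 3 higher and 5 lower of 8, with a median of -0.09. Without AA replicate 3 the split was 5 higher and 3 lower, with a median of 0.03, and without SS replicate 1 the median was -0.14. Il17re, a receptor subunit for interleukin-17C, differed by -0.29 ± 0.13 (SE), Id2, a factor that innate lymphoid cells need, by -0.30 ± 0.14 (SE), Il2ra, a chain of the interleukin-2 receptor, by -0.17 ± 0.09 (SE), and Nrp1, a semaphorin coreceptor, by 0.30 ± 0.16 (SE). T cell genes were 2 higher and 12 lower of 14, the median being -0.08, and 0 had an unadjusted p under 0.05 in either direction. Without SS replicate 1 the split was 7 and 7, with a median of 0.0026.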

How the data were processed

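RNA of 8 distal colon samples (4 AA, 4 SS) was measured on Affymetrix arrays. Per the labels' protocols, every sample had an array to itself. The deposited log2 values came from RMA, with Affymetrix Power Tools and Partek 6.4 named, per the submitters' processing notes. The genome build of the values is not given in the sources used here. They carried equal batch means, a step not given there either. The authors' deposited gene set table holds a normalized enrichment score, a nominal p-value and a q-value per set, per the file headers, and the name of that list gives 3 days after appendicectomy.

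Of 23442 probe sets, 18154 were tested, those with 1 gene symbol, while 1559 had several and 3729 are unnamed here. Entrez identifiers matched the RefSeq gene table of GRCm38.p6 for 18092, including the 5 members, and changed 0 symbols. Differences were fitted in R 4.3.3 with limma 3.58.1 (lmFit, eBayes) with batch and group as terms, 5 residual degrees of freedom and no filter. Benjamini-Hochberg adjustment ran over all tested probe sets. A second fit added the interaction of batch and group. The script was tested on simulated data. A gene with several probe sets was read from the one with the highest mean. The members and lists were chosen with earlier results of these data known. The text names all members and draws other genes from fixed partners, the 4 genes of smallest p in each list that marks no other tissue and the 5 nearest profiles; Car1 was added as a tissue check. Animals are not identified in the labels, so a p-value reflects only how these samples spread. The number of arrays limits the precision. Alternatives are in the closing section.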

Additional observations from a re-analysis of the deposited data

Results flagged for a closer look

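Among 116 sets of 4 arrays, 1 for each group of each gene named in the text, 5 had an array far from the other 3 by Dixon's test, and chance flags about 1 in 20 groups. In SS, Ccr7 was at 6.79 in SS replicate 1 and at 6.12 to 6.24 in the others, and Mzb1 was at 6.47 in SS replicate 4 and at 6.92 to 6.95 in the others. In AA, Pax5 was at 6.41 in AA replicate 4 and at 5.97 to 5.98 in the others. AA replicate 3 was the far array for Spi1, at 6.60 against 5.93 to 6.03, and for Il1f9, at 6.30 against 4.43 to 4.73. Il1f9 was taken up for its likeness to Cxcl13, which peaks in the same array, so its far array follows from that choice and is not to be set against chance. Cxcl13 in AA replicate 3 did not pass this test. The deposited values are centred by batch, which moves the other arrays of a batch when 1 is high.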

How the results depend on the processing

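With 4 arrays a group in 2 batches, precision is low, and under every alternative run 0 of the 5 members had an adjusted p under 0.05. Spib was lower in AA under all 19 of its alternatives, from -0.44 to -0.23, at an unadjusted p under 0.05 in 12. Leaving out single arrays gave -0.44 to -0.23 for Spib, -0.33 to -0.08 for Ltb, -0.17 to -0.015 for Ltbr, -0.32 to -0.02 for Pou2af1 and -0.58 to 0.39 for Cxcl13. Cxcl13 turned negative with array weights (-0.041), without AA replicate 3 and SS replicate 1 together (-0.56) and in batch 1 alone (-0.76). Ltbr was 0.065 in batch 1 alone. In batch 2 alone Ltb was 0.0045 and Pou2af1 0.23, and Pou2af1 was 0.027 without AA replicate 3 and SS replicate 1 together. A filter at the median level left no value for Ltb, Spib and Pou2af1.

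Over all probe sets, 977 were higher and 490 lower in AA at an unadjusted p under 0.05. Leaving out single arrays gave 585 to 1013 higher and 322 to 1121 lower. The lower count was 751 with no batch term, 252 with the filter, which tests fewer probe sets, 781 with quantile normalization, 870 without AA replicate 3 and SS replicate 1 together and 1408 in batch 2 alone. Array weights gave 1602 higher and 1396 lower, and passed 103 higher and 74 lower after adjustment, with a weight of 11.5 for SS replicate 2 against 0.273 to 1.53 for the others. Other causes were not tested. Same-numbered arrays of the groups deviated at correlations of -0.44 to -0.09. Equal batch means push such correlations below 0, so they cannot tell whether the numbers pair the arrays. With the replicate block Spib was at -0.34 with an adjusted p of 0.707 in limma, and 875 probe sets were higher and 369 lower at an unadjusted p under 0.05, with 0 called.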

Other observations

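Spi-B also acts in plasmacytoid dendritic cells. Of 10 measured plasmacytoid dendritic cell genes 7 were higher and 3 lower in AA, the median being 0.05 and 0.08 without AA replicate 2 or SS replicate 1. An unadjusted p under 0.05 was reached by 1 higher gene, against 5.38% of all probe sets on that side. That gene was Irf7, which interferon induces in many cell types. Of 9 measured genes of tuft cells, the chemosensory cells of the epithelium, 5 were higher and 4 lower, the median being 0.05, and 0 had an unadjusted p under 0.05. Without SS replicate 1 the tuft split was 7 higher and 2 lower, and without AA replicate 2 or AA replicate 3 it was 4 higher and 5 lower. Genes of blood and lymph endothelium, some of which carries MAdCAM-1 in the gut, were 5 higher and 4 lower of 9, with a median of 0.03 and of 0.09 without AA replicate 3. Smooth muscle genes were higher in 10 of 10, with a median of 0.35, and in 9 of 10 without AA replicate 2. Mesothelial genes were higher in 9 of 9, with 0.81, and adipocyte genes lower in 9 of 9, with -0.53. Of all tested probe sets 49% were lower. An unadjusted p under 0.05 was reached by 6 smooth muscle, 6 mesothelial and 0 adipocyte genes. That threshold took 5.38% of all probe sets on the higher side and 2.7% on the lower side. The mesothelial median differed between batches, 0.09 in the first against 1.497 in the other, and was 0.445 without AA replicate 3. The adipocyte median was -0.18 without SS replicate 1.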
